A study of Rattus norvegicus with 18 samples.

Results

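The myelin transcripts Pmp22, Prx, Drp2, Mag, Ncmap, Cldn19, Mal, and Pllp and the transcription factor Egr2 were followed in dorsal root ganglia (DRGs) of rats after total knee arthroplasty (TKA, replacement of the knee joint). Each gene was taken by the transcript named in the list of transcripts called by the study, or else by the named transcript of that symbol with the highest mean count. This gave 9 of 41078 transcripts in the count table, of which 3837 could be named. RNA-seq counts came from 18 Sprague Dawley rats, 3 male and 3 female in each group. The 6 naive rats had no procedure, the 6 sham rats had anesthesia with an incision of the skin that was sutured, and the 6 TKA rats had anesthesia and the whole operation. Surgery was on the left knee, and L3 and L4 DRGs of the left side were taken from each rat, 24 h after surgery in the operated groups. The age of the rats is not given in the sources used here. Each rat was 1 library.

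Myelin is the stack of membrane that Schwann cells wrap around the larger axons of peripheral nerves, and myelinated axons run into and through the DRG. Egr2 (also called Krox20) is the zinc-finger factor that Schwann cells need to start and keep myelination, and it acts on many myelin genes together with Sox10. Other cells, among them macrophages, can also make Egr2. The 8 other genes encode proteins of compact myelin, of the outer Schwann cell surface, of the membrane that faces the axon, and of the uncompacted loops and incisures.

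Total counts ranged from 20230562 to 29343899 per rat. The 4 named transcripts of the sensory neuron list (Nefl, Nefm, Nefh, and Calca) summed to 34673 to 46647 CPM (counts of a transcript relative to the scaled library total) in the 12 naive and sham rats, so the main markers of the ganglion were present. TKA rats 2 and 6 stood apart. The same neuron transcripts summed to 17534 CPM in rat 2 and 21908 CPM in rat 6, against 29088 to 39678 CPM in the 4 other TKA rats. The library of TKA rat 4 went against its label of female, with 3472 counts on the 3 transcripts found only in male naive and sham rats, against 3097 to 5025 in rats labelled male and at most 1 in the other rats labelled female. For this reason sexes were compared in naive and sham rats only. The values below are given for all 6 TKA rats and without rats 2 and 6. In whole ganglia, a difference in the number of Schwann cells cannot be told apart from a difference in RNA per cell.

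The stretch of 250 bases before the start of each gene was read from RefSeq (rat build GRCr8, all 9 genes matched), to show which letters known for Schwann cell factors lie next to genes that varied together. The motifs were searched on both strands. The EGR motif GCGNGGGCG was in 0 of the 10 promoters listed for these 9 genes and in 4.29% of all 33469 promoters in the table. The Sox motif ACAAAG or ACAATG was in the promoter of Mag and in 25.3% of all promoters. The TEAD motif GGAATG was in those of Prx, Pmp22, and Drp2 and in 12.1% of all promoters. The CArG box, the letters bound by serum response factor at rapidly induced genes, was in that of Egr2 and in 1.5% of all promoters. Of 3 motifs with a match, the sequences below show Egr2 (chr20:21054442-21054691, minus strand) with its CArG box in capitals, Mag (chr1:95291045-95291294, minus strand) with its Sox motif in capitals, and Prx (chr1:91914171-91914420, plus strand) and Pmp22 (chr10:48294682-48294931, plus strand) with their TEAD motifs in capitals. The matches in Mag, Prx, and Pmp22 are on the opposite strand, so the capitals spell the reverse complement, and the match in Egr2 reads the same on both strands. These starts may not be those of the counted transcripts, and a match of letters is a description, not a binding site.
Egr2: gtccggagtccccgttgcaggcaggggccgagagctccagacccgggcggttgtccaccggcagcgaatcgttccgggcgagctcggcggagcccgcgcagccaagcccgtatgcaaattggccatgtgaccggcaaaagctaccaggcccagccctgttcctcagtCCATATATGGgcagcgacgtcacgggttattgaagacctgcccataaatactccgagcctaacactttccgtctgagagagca
Mag: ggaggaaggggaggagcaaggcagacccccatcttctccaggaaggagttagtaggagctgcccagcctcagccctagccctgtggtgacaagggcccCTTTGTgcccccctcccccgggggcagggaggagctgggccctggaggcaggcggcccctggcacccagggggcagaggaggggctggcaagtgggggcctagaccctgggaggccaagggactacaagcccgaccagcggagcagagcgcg
Prx: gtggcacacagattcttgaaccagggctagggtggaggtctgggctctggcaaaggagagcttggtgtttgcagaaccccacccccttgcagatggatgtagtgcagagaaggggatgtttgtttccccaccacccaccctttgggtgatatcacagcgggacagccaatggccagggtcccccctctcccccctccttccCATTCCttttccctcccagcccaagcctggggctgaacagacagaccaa
Pmp22: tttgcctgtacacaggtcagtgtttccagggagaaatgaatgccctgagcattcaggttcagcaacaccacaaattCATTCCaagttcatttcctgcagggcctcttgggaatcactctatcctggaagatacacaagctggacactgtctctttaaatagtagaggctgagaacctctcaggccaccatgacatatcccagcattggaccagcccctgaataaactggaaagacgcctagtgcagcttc

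The myelin transcripts other than Mag were highest in TKA rats 2 and 6, and the 4 other TKA rats lay mostly within the range of the naive and sham rats. In 8 of the 9 transcripts (all but Mag), rats 2 and 6 were the 2 highest of the 18 rats. Both rats exceeded each of the 12 naive and sham rats in 13% of all 16048 transcripts in the same table and were the 2 highest of 18 rats in 10.9%. All 9 members were named in a list ranked by p in TKA against sham rats, which include rats 2 and 6, so their count is a description. The order of the 2 rats was the same for all 9 members, with rat 2 above rat 6.

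Pmp22 (transcript ENSRNOT00000081415) encodes a four-span membrane protein of compact myelin whose gene dosage is altered in inherited neuropathy. The level of this transcript was 10.4, 13.2, and 20.3 CPM (lowest, median, and highest) in naive rats, 11.1, 19.9, and 22.02 CPM in sham rats, and 14.5 to 23.0 CPM in 4 TKA rats. Rat 2 had 119 CPM and rat 6 had 67.6 CPM, which was 7.31 and 4.16 times the mean of the naive and sham rats. Apart from these 2 rats, the 3 groups overlapped. A second Pmp22 transcript had 1.07 to 3.47 CPM in naive and sham rats, 12.7 CPM in rat 2, and 9.97 CPM in rat 6.

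Prx (periaxin) and Drp2 (dystrophin-related protein 2) are partners that tie the outer Schwann cell membrane to dystroglycan and the basal lamina. Prx (ENSRNOT00000024771) was at 601, 894, and 1101 CPM (lowest, median, and highest) in naive rats, 786, 1077, and 1742 CPM in sham rats, and 828 to 1413 CPM in 4 TKA rats. It reached 6024 CPM in rat 2 and 4185 CPM in rat 6, 5.94 and 4.13 times the naive and sham mean. Without those 2 rats, no TKA rat exceeded the highest sham rat in Prx. Drp2 (ENSRNOT00000085693) was at 238, 289, and 364 CPM in naive rats, 223, 335, and 757 CPM in sham rats, and 314 to 494 CPM in 4 TKA rats. It was 1558 CPM in rat 2 and 1364 CPM in rat 6, or 4.62 and 4.05 times the naive and sham mean, and the 2 rats were nearer to each other in Drp2 than in the 8 other members. The highest control value of Prx, Drp2, Ncmap, Cldn19, and Mal was in the same rat, sham rat 4.

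Mag (myelin-associated glycoprotein, ENSRNOT00000028544) sits on the Schwann cell membrane that faces the axon. It had few counts, 5 to 695 per rat, so its values are the least precise of the 9. Mag was at 0.237, 1.03, and 2.09 CPM in naive rats and at 0.262, 1.34, and 8.44 CPM in sham rats. It had 0.276 to 3.80 CPM in 4 TKA rats, 36.2 CPM in rat 2, and 6.57 CPM in rat 6. Sham rat 1, with 8.44 CPM, was above TKA rat 6, which is why Mag was the exception above. A second Mag transcript had 150 counts in all, 88 of them in 1 rat, and did not pass the filter on low counts.

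Ncmap (noncompact myelin-associated protein) and Cldn19 (claudin 19, a tight junction protein) belong to the uncompacted parts of the Schwann cell. Ncmap (ENSRNOT00000073506) was at 54.8, 75.8, and 85.1 CPM in naive rats, 52.4, 84.9, and 135 CPM in sham rats, and 87.1 to 138 CPM in 4 TKA rats, with 579 CPM in rat 2 and 376 CPM in rat 6. All 6 TKA rats were thus above all 6 naive rats, which held for Ncmap alone among the members and for 1.27% of all transcripts. Cldn19 (ENSRNOT00000047151) was at 58.3, 84.1, and 90.7 CPM in naive rats, 64.3, 92.1, and 186 CPM in sham rats, and 78.5 to 137 CPM in 4 TKA rats. Rat 2 had 682 CPM and rat 6 had 414 CPM of Cldn19, and the other rats of the 3 groups overlapped.

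Mal and Pllp (plasmolipin) are small proteolipids of lipid-rich membrane domains in myelin. Mal (ENSRNOT00000020870) had 3204 CPM in rat 2, the largest excess in that rat after Mag, and 1676 CPM in rat 6, or 9.53 and 4.99 times the naive and sham mean. Its other values were 193, 286, and 377 CPM in naive rats, 282, 369, and 525 CPM in sham rats, and 299 to 521 CPM in 4 TKA rats. Pllp (ENSRNOT00000022277) was at 66.0, 90.6, and 111 CPM in naive rats, 78.8, 116, and 146 CPM in sham rats, and 88.4 to 164 CPM in 4 TKA rats, against 773 CPM in rat 2 and 431 CPM in rat 6. For both transcripts the 4 other TKA rats overlapped with the naive and the sham rats.

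**Figure D1:**
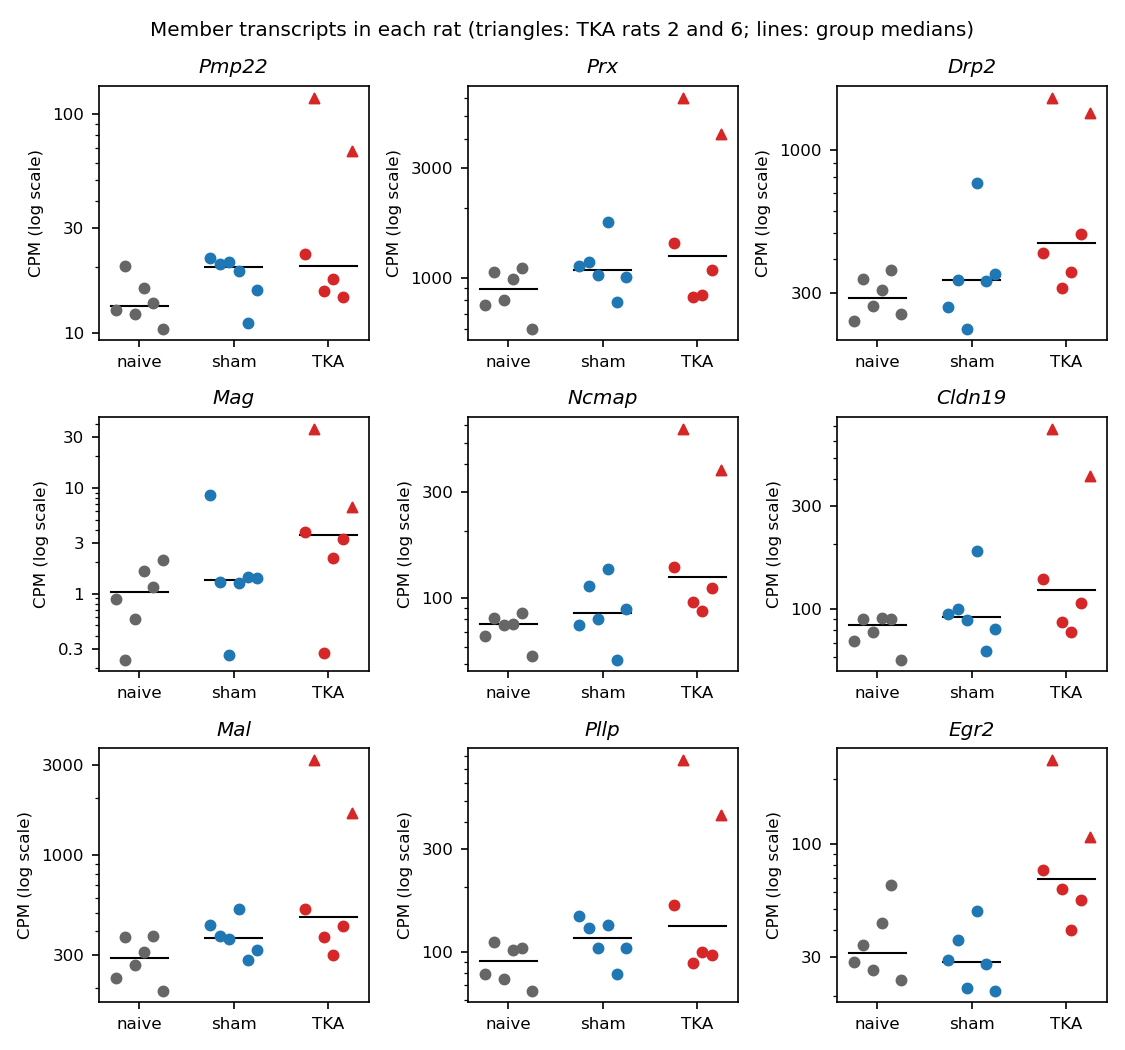
Level of each member in every rat, as CPM on a log axis, for naive, sham, and TKA rats (6 each, lines at group medians). TKA rats 2 and 6 (triangles) are the 2 highest of 18 rats in all panels but that of Mag, and in the panel of Egr2 3 of the 4 other TKA rats also exceed the highest sham rat. Egr2 was picked from transcripts called in TKA against sham rats, so this is a description.

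Egr2 (ENSRNOT00000000792) exceeded the highest sham rat, but not the highest naive rat, in TKA rats 3 (61.8 CPM) and 5 (55.2 CPM). In these rats the myelin transcripts lay within the range of the naive and sham rats. The level of Egr2 was 23.6, 31.4, and 65.1 CPM (lowest, median, and highest) in naive rats and 21.0, 28.6, and 49.1 CPM in sham rats. The 4 other TKA rats had 40.4 to 75.8 CPM, rat 2 had 246 CPM, and rat 6 had 108 CPM, and the TKA rats exceeded the highest sham rat in 5 of 6 cases. Egr2 was picked from the transcripts the study called in TKA against sham rats, so its rise above sham rats is a description. The share of all transcripts with such a count was not computed. Naive rats overlapped more, since naive rat 5 had 65.1 CPM and only 3 TKA rats were above it. Of the 4 other TKA rats, only rat 1 (75.8 CPM) was above it. Rat 1 also exceeded all naive and sham rats in Pmp22, Ncmap, and Pllp.

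In TKA against naive rats, 0 of 9 members passed the threshold (fold-change of 1.5 or more and p under 0.05 after Benjamini-Hochberg adjustment, by the quasi-likelihood test of edgeR), which 0.0857% of 15170 transcripts passed. All 9 had a positive log2 fold-change and an unadjusted p under 0.05, which 11.7% of transcripts tested had in this direction. All 9 were named in a list ranked by p in TKA against sham rats, which holds the same TKA rats, so the counts of members here are descriptions. The log2 fold-change was 1.66 for Ncmap (standard error, SE, 0.44), the member with the lowest adjusted p of 0.136. Egr2 had a log2 fold-change of 1.41 (SE 0.41, adjusted p = 0.147 in edgeR's quasi-likelihood test). The members ranged from 1.34 for Drp2 to 2.98 for Mag (SE 0.91), with a median of 1.62 beside a median of 0.02 over all transcripts tested. DESeq2, the package named by the study, was run here with a prior on the fold-change. It called 6 members (Pmp22, Mag, Ncmap, Drp2, Mal, and Egr2, adjusted p of 0.0315, 0.0328, 0.00822, 0.0176, 0.0470, and 0.0206 in DESeq2). It called 2.23% of the 12686 transcripts to which it gave an adjusted p.

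Without rats 2 and 6 the fold-changes against naive rats were smaller. The log2 fold-change was 0.23 for Prx (SE 0.17), 0.31 for Pmp22 (SE 0.19), and 0.55 for Ncmap (SE 0.13, adjusted p = 0.0587 in edgeR), and Egr2 was at 0.66 (SE 0.24, adjusted p = 0.249). No member was called, while 0.668% of 15709 transcripts were, and 5 of 9 members had a positive value with an unadjusted p under 0.05, beside 6.86% of transcripts. The members were named in the same ranked list, so this count is also a description.

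In TKA against sham rats, 0 of 9 members and 0 of 15320 transcripts (0%) were called by edgeR, while 1355 (8.84%) reached an unadjusted p under 0.05. DESeq2 called 55 transcripts (0.394%), Egr2 among them (adjusted p = 0.00978), and limma voom called 1. Among the members, 8 of 9 reached an unadjusted p under 0.05 and a positive value, beside 5.94% of transcripts. All 9 were named in a list ranked by p in this same contrast, so their values here support nothing. Egr2 had a log2 fold-change of 1.67 (SE 0.40, adjusted p = 0.367 in edgeR), and the myelin transcripts ranged from 0.99 for Drp2 (SE 0.44) to 1.89 for Mag (SE 0.98). Leaving out rats 2 and 6 brought the 8 myelin transcripts to between -0.15 for Prx (SE 0.20) and 0.23 for Ncmap (SE 0.21), and Pmp22, Cldn19, and Pllp were also below 0. Egr2 fell from 1.67 to 0.90 (SE 0.23, adjusted p = 0.315 in edgeR) and was the 1 member of 9 with an unadjusted p under 0.05, beside 3.26% of transcripts in that direction. TKA rats entered both comparisons, so these are not independent.

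**Figure D2:**
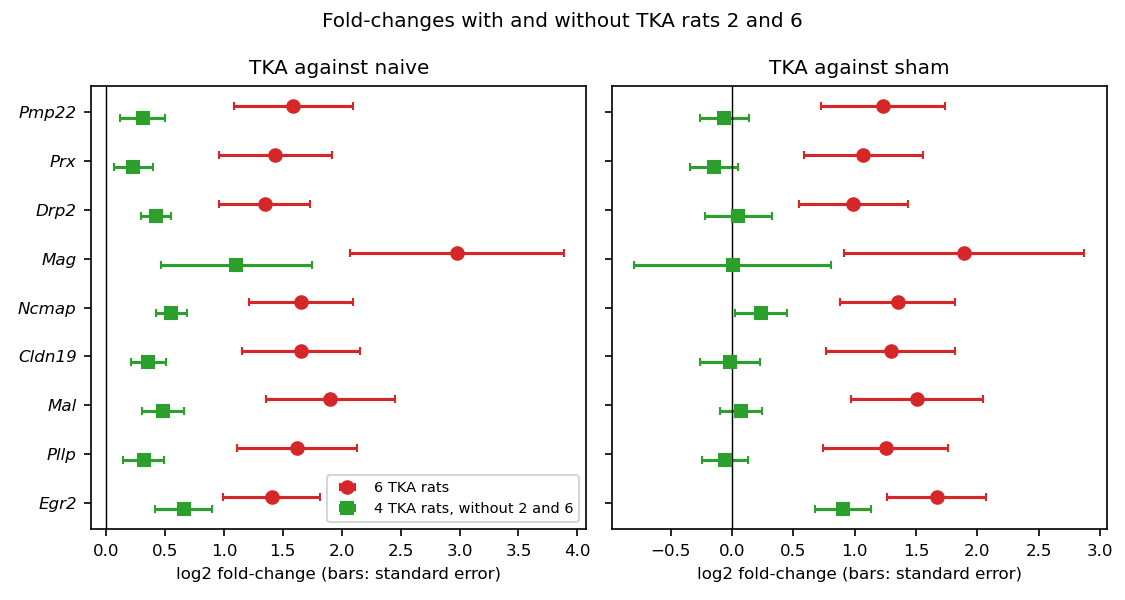
Log2 fold-change with its standard error of each member in TKA against naive rats and in TKA against sham rats, with all 6 TKA rats (circles) and without rats 2 and 6 (squares). Against sham rats the myelin transcripts fall to between -0.15 and 0.23 without these rats, and Egr2 falls from 1.67 to 0.90.

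In sham against naive rats, 0 of 9 members and 0 of 15153 transcripts (0%) were called by edgeR, and 625 (4.12%) had an unadjusted p under 0.05. DESeq2 and limma voom also called 0 transcripts. The log2 fold-change was positive for the 8 myelin transcripts, from 0.31 for Ncmap (SE 0.18) to 1.09 for Mag (SE 0.68), and -0.25 for Egr2 (SE 0.25), with an adjusted p of 0.998 for each of the 9. Prx, Mal, and Pllp had an unadjusted p under 0.05 (0.0451, 0.0320, and 0.0274), that is 3 of 9 beside 2.49% of transcripts in this direction. All 9 were named in a list ranked by p in TKA against sham rats, which holds the same sham rats. Prx and Mag were also named in the list of sham against naive rats, so this count is a description. No member differed beyond the spread between rats once p was adjusted. Between males and females of the naive and sham groups, 0 of 9 members were called, against 0.139% of 15153 transcripts. Drp2 was the 1 member of 9 with an unadjusted p under 0.05, beside 13.4% of transcripts, with 279 CPM in males and 395 CPM in females (log2 fold-change -0.46, SE 0.21, adjusted p = 0.350 in edgeR).

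The myelin transcripts varied together. Across 16 rats without TKA rats 2 and 6, Pearson's r between pairs of them had a median of 0.721, and in the 12 naive and sham rats it was 0.746. The lowest r in the 12 rats, -0.118, belonged to a pair with Mag, and without Mag the median over the 7 others was 0.775. Values of one library share its depth and its mix of cells.

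Egr2 followed the mean log2 CPM of the 8 myelin transcripts with r = 0.857 (Spearman's rho 0.705) over 18 rats, but this rests largely on rats 2 and 6, and r was 0.549 without them. In the 12 naive and sham rats it was 0.492 (rho 0.580). Within groups r was 0.932 in 6 naive rats (rho 0.943), 0.736 in 6 sham rats (rho 0.714), and 0.932 in 6 TKA rats (rho 0.829). Among the single members, r over 18 rats ran from 0.63 with Mag to 0.877 with Ncmap, and over the 16 rats from 0.164 with Mag to 0.646 with Ncmap. These values were read against the 95th percentile of r between Egr2 and all transcripts, which was 0.719 in 18 rats, 0.472 in the 16 rats, and 0.513 in the 12 naive and sham rats. It was 0.764 in naive, 0.773 in sham, and 0.927 in TKA rats. This percentile is of single transcripts, while a mean of 8 evens out their scatter, so the comparison is not like for like. In the 6 naive rats, r with single members ran from 0.066 to 0.84. The r with the mean of the 8 was thus above that percentile in the 18 rats, in the 16 rats, and in the naive rats. It was close to that percentile in the TKA rats, and inside it in the 12 naive and sham rats and in the sham rats. With the mean of the 7 without Mag, r was 0.863 in 18 rats, 0.588 in the 16 rats, and 0.519 in the 12 naive and sham rats. It was 0.775 in naive, 0.756 in sham, and 0.941 in TKA rats. The values for naive rats and for the 12 rats were then close to the percentile. The members were chosen with results of the TKA rats known, so no p is given for these correlations. All members were named in a list ranked by p in TKA against sham rats, so r in sets that hold these rats is a description.

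**Figure D3:**
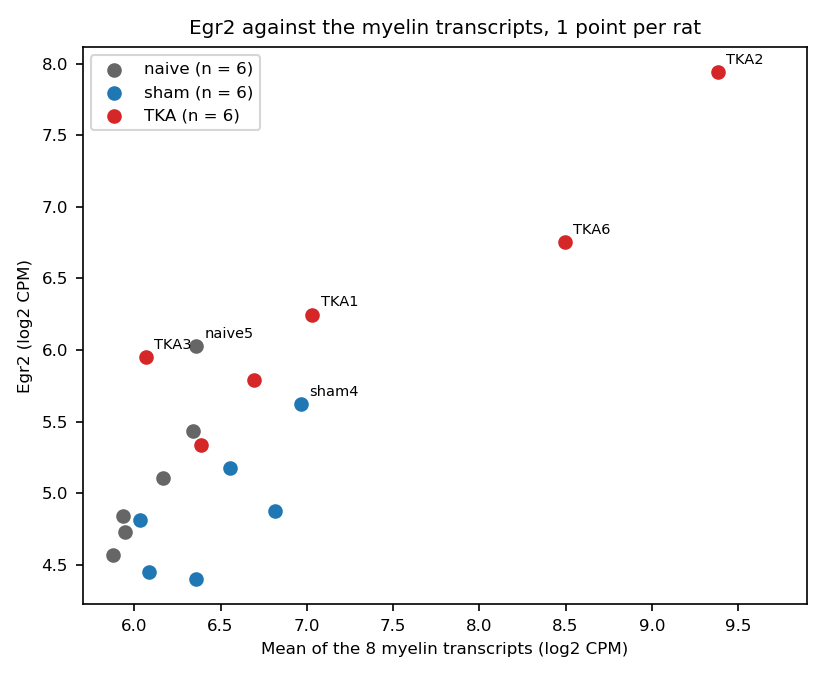
Log2 CPM of Egr2 against the mean log2 CPM of the 8 myelin transcripts, 1 point per rat, colored by group. TKA rats 2 and 6 lie far from the others on both axes, and without them r is 0.549.

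The level of Egr2 relative to the myelin mean separated the 4 other TKA rats from the sham rats. On the log2 scale, Egr2 minus the mean of the 8 was -1.31, -1.08, and -0.33 (lowest, median, and highest) in naive rats, -1.95, -1.51, and -1.22 in sham rats, and -1.05 to -0.12 in the 4 other TKA rats. These 4 lay above all 6 sham rats and overlapped with the naive rats, while rats 2 and 6, at -1.44 and -1.74, lay within the range of the sham rats. With the 7 transcripts other than Mag, the 4 rats had -1.80 to -1.19 against -2.78 to -1.997 in sham rats. The 4 rats were picked out by levels of these same transcripts, so no test was made. With the myelin mean as a covariate, the log2 fold-change of Egr2 was 0.86 in TKA against sham rats (SE 0.19) and 0.34 in TKA against naive rats (SE 0.24). This covariate was chosen after seeing the data, and Egr2 was named by its values in TKA against sham rats, so both are descriptions.

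**Figure D4:**
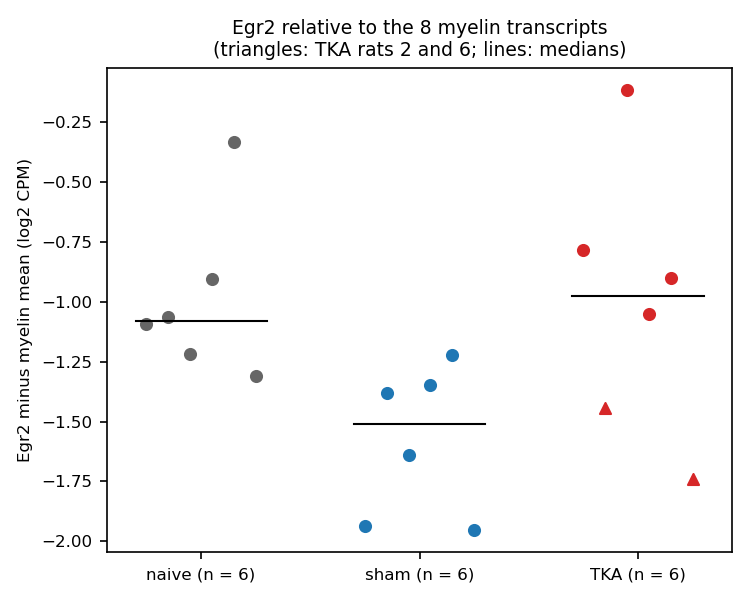
Log2 CPM of Egr2 minus the mean log2 CPM of the 8 myelin transcripts in each rat, by group, with lines at the medians. The 4 TKA rats drawn as circles lie between -1.05 and -0.12, above the 6 sham rats at -1.95 to -1.22, and TKA rats 2 and 6 (triangles) lie among the sham rats.

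Other genes of myelin and of neighboring cells were read for the same rats. Most of their names came from the list ranked by p in TKA against sham rats, so the counts below are descriptions. Rats 2 and 6 both exceeded the 12 naive and sham rats in 13% of all 16048 transcripts. Of 22 further myelin and Schwann cell membrane genes, 15 could be named, all 15 passed the filter, and 14 of them exceeded the 12 naive and sham rats in rat 2 and in rat 6 alike. Of those 15, 0 were called in TKA against naive rats, beside 0.0857% of 15170 transcripts, with a median log2 fold-change of 0.86. The 3 with the lowest p were Litaf at 0.82 (SE 0.21), Fa2h, which makes the hydroxylated lipids of myelin, at 1.99 (SE 0.51), and Ugt8, which makes galactosylceramide, at 2.19 (SE 0.59). In the laminin and dystroglycan group, to which the Prx and Drp2 complex is tied, 7 of 8 named transcripts passed the filter, and 6 exceeded the 12 control rats in rat 2 and in rat 6, with Lamb2 at a log2 fold-change of 1.36 (SE 0.28), Itga6 at 1.30 (SE 0.40), and Lamc1 at 0.63 (SE 0.20). In sterol and lipid synthesis, 5 of 20 genes were named and all 5 exceeded them in both, led by Idi1 at 0.60 (SE 0.16), Nsdhl at 0.41 (SE 0.11), and Elovl1 at 0.93 (SE 0.27). None of these was called.

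Of 14 regulators and receptors of Schwann cells, 4 were named (Egr1, Erbb2, Adgrg6, and Tead1). In rat 2 and in rat 6 alike, 1 of the 4 exceeded the 12 naive and sham rats, beside 13% of all 16048 transcripts. Sox10 and Pou3f1 were not among the named transcripts, so their levels are not analysed here. With rats 2 and 6 left out, Egr1, an immediate early relative of Egr2, was called against naive rats at a log2 fold-change of 1.33 (adjusted p = 0.0116 in edgeR). Of the repair Schwann cell list, 2 of 12 genes were named. Both were called in the same fit, Jun at 1.10 (adjusted p = 0.00283 in edgeR) and Gfap at 1.97 (adjusted p = 0.00157 in edgeR). Both were also named in the published list of TKA against naive rats, so these calls are descriptions. The other genes of the list could not be read, and the cells that made Jun and Gfap in whole ganglia were not identified. In that fit 0.668% of 15709 transcripts were called. Against sham rats, without rats 2 and 6, 0% of 15904 transcripts were called. There Egr1 was at 1.19 (SE 0.22), Jun at 0.61 (SE 0.19), and Gfap at 0.92 (SE 0.53). In sham against naive rats Jun was at 0.48 (SE 0.11) and Gfap at 1.05 (SE 0.44), not called. Jun was 132 CPM in rat 2, below the 147 to 280 CPM of naive and sham rats. Without rats 2 and 6, the named transcript of Erbb2, a subunit of the receptor for neuregulin, was called against naive rats at 4.60 (adjusted p = 0.0229 in edgeR). It had low counts, with 0 in 2 naive rats. Its mean was 2.58 CPM in the 6 TKA rats, 2.73 CPM in sham rats, and 0.126 CPM in naive rats. Fa2h was called at 0.68 (adjusted p = 0.0239 in edgeR). Against sham rats, without rats 2 and 6, Erbb2 was at 0.23 (SE 0.82) and Fa2h at 0.18 (SE 0.20). With all 6 TKA rats, the one gene called in these lists was Cldn1, a claudin of the perineurium, at 1.52 (SE 0.23, adjusted p = 0.0197).

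Lists of other cell types were read in the same rats. Of the neuron list, the 3 neurofilament transcripts, which make up most of its sum, were lowest in rats 2 and 6. Calca was at 70.4 CPM in rat 2, at 459 CPM in rat 6, inside the range of 421 to 629 CPM in naive and sham rats, and at 657 to 700 CPM in the 4 other TKA rats, above that range. With the mean log2 CPM of the 3 neurofilament transcripts entered as a covariate, the log2 fold-changes of all 8 myelin transcripts were below 0 in both comparisons with TKA rats, and that of Egr2 was 0.23 against naive and 0.50 against sham rats. The skeletal muscle list (Acta1, Ckm, Mb, and Mylpf) summed to 8558 CPM in rat 2 and 887 CPM in rat 6. The sum was 18.4 to 608 CPM in naive and sham rats and 33.2 to 902 CPM in the 4 other TKA rats. Rat 2 was far above all other rats. Rat 6 was above all naive and sham rats, as was the highest of the 4 other TKA rats. The perineurium and fibroblast list was 1344 CPM in rat 2 and 1088 CPM in rat 6, against 269 to 515 CPM in naive and sham rats and 507 to 712 CPM in the 4 other TKA rats. The macrophage list, read because macrophages also make Egr2, was 168 CPM in rat 2, 63.3 CPM in rat 6, and 46.6 to 63.1 CPM in the 4 other TKA rats, against 14.4 to 59.4 CPM in naive and sham rats, and here too rat 6 was level with the 4 others. The satellite glia list was 1727 CPM in rat 2 and 576 CPM in rat 6, against 274 to 541 CPM in naive and sham rats and 372 to 426 CPM in the 4 other TKA rats. Its sum is nearly all Glul, while rat 2 had 49.5 CPM of Fabp7 and rat 6 had 24.7 CPM, against 26.6 to 51.3 CPM in naive and sham rats. The 1 named transcript of Apoe was low throughout, with 2.03 CPM for rat 2 and 0.0871 CPM for rat 6. Any other transcripts of that gene could not be read, so this is not the level of the gene. Of 5 adipocyte genes, 1 was named, and it did not pass the filter. The part of these other cells in the levels of the myelin transcripts and of Egr2 was not tested.

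Among 3232 named transcripts, the 5 most like the mean of the 8 myelin transcripts over 18 rats were Fa2h (r = 0.989), Ugt8 (0.983), Csrp1 (0.983), Cd9 (0.98), and Pea15 (0.98). Over the 12 naive and sham rats they were Fa2h (0.949), Pea15 (0.947), Ugt8 (0.928), Cdc42ep1 (0.927), and Hspb6 (0.916). For Egr2 the 5 were Ccng2 (0.922), Acss1 (0.91), Ppp1cb (0.908), Slc9a3 (0.899), and Ak3 (0.899) over 18 rats, and Acss1 (0.844), Lrrn1 (0.812), Disp1 (0.797), Aarsd1 (0.79), and Aox1 (0.783) over 12. Acss1 was the 1 transcript in both sets for Egr2.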

How the data were processed

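RNA-seq was done on L3 and L4 DRGs of 18 rats, 6 naive, 6 sham, and 6 TKA, each rat a separate sample grouped by its label. The authors aligned reads with HISAT2 (rn6), counted them per Ensembl transcript with featureCounts, and deposited the counts without normalization. Strand and multi-mapping settings are not given in the sources used here, so reads shared by isoforms or overlapping genes may be split. The table holds no gene names. They were taken from the published lists, of which the copies used here are shortened (1998 rows for TKA against sham, ranked by p), so genes far from a difference in that contrast lack names and lists are biased toward it. Some genes are not reported here. Members and lists were chosen with earlier results of these data known.

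Pairs of groups were fitted separately (edgeR 4.0.16, R 4.3.3, filterByExpr, TMM, quasi-likelihood F test, Benjamini-Hochberg over all transcripts). Transcripts were called at a fold-change of 1.5 or more and an adjusted p under 0.05. SE is the log2 fold-change over the square root of F. Sexes were compared with group as a covariate. CPM of single rats was scaled by TMM over 18 rats (16048 transcripts), and log2 CPM used a prior count of 2. Correlations across rats are given as descriptions. Alternatives were DESeq2 1.42.0, limma 3.58.1 voom with quality weights, RLE scaling, and other filters. Further ones were sex or rat number as a term, all 3 groups in one fit, and rats left out. The study names DESeq2, and the prior on the fold-change used with it was a choice made here. The fits were tested on simulated data. The genes named are the 9 members, list genes called in a comparison or else the 3 with the lowest p in TKA against naive rats, and the 5 nearest by r. No 2 libraries had the same counts (lowest chi-square 12.9 per degree of freedom over 153 pairs). p-values measure the spread between rats.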

Additional observations from a re-analysis of the deposited data

How the results depend on the processing

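The choice of test and of rats decided the number of transcripts called, and leaving out rats 2 and 6 turned the direction of 4 of 9 members against sham rats and of 0 of 9 against naive rats. In TKA against naive rats, 13 transcripts were called by edgeR, against 283 by DESeq2, 123 by limma voom, 116 with all 3 groups in one fit, 105 without TKA rats 2 and 6, 39 with the neurofilament mean as a covariate, and 3 to 113 when single rats were left out. In TKA against sham rats, 0 were called, against 55 by DESeq2, 1 by limma voom, and 11 with all 3 groups in one fit. For sex, limma voom called 63 against 21. The cause of these differences was not tested. The correlation of Egr2 with the myelin mean, 0.857 over 18 rats, was 0.714 to 0.898 when single rats of the 18 were left out, and 0.492 in naive and sham rats only.

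Without TKA rats 2 and 6, the log2 fold-change against sham rats was -0.063 for Pmp22, -0.151 for Prx, -0.017 for Cldn19, and -0.061 for Pllp. With the neurofilament mean as a covariate, chosen after seeing the data, it was -0.29 for Pmp22, -0.44 for Prx, -0.45 for Mag, -0.045 for Ncmap, -0.10 for Drp2, -0.34 for Cldn19, -0.24 for Mal, and -0.39 for Pllp against naive rats, and -0.52, -0.71, -1.36, -0.23, -0.39, -0.60, -0.50, and -0.62 in the same order against sham rats. With single rats left out, all members kept a positive log2 fold-change in both comparisons with TKA rats and none was called. The myelin mean as a covariate and the mean of 7 transcripts without Mag were also chosen after seeing the data.

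Rats that shared a number did not vary together (correlations of their deviations were -0.05 to 0.219, and a rat was nearest to its own number in at most 2 of 6), so the numbers do not pair the rats. With the rat number as a block, 1 transcript was called in TKA against naive rats, 0 in the other comparisons, and no member.

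Low counts limit Mag, with 5 counts in the lowest rat. Transcripts without a name in the lists used here could not be read.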
